A study of Mus musculus with 12 samples.

Results

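The genes described here are those of the proteasome, chosen as every probe set on 3 Affymetrix mouse array designs whose platform annotation holds 1 gene symbol made of Psma, Psmb, Psmc, Psmd, Psme, Psmf or Psmg and a number. The rule found 82 probe sets of 47 genes, among 15964 genes named on the arrays: 56 probe sets on U74Av2, 8 on U74Bv2 and 18 on U74Cv2. The choice used names and no measured value. The arrays carried total RNA of 4 germ cell types isolated from mice: spermatogonia of type A and of type B, which divide by mitosis, pachytene spermatocytes in meiotic prophase, and haploid round spermatids. No strain, age, genotype or isolation method was given in the sources used here. Each cell type was hybridised to 1 array of each design, 12 arrays in all, so there are no replicates, the number of arrays limits the precision, and no test was possible.

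The proteasome is the protease that degrades proteins tagged with ubiquitin. Its core particle stacks rings of alpha subunits (Psma) around rings of beta subunits (Psmb), some of which carry the proteolytic sites. The regulatory particle caps the core with a ring of ATPases (Psmc), which unfold substrates, and with further base and lid subunits (Psmd), which bind and remove ubiquitin. Activators of the Psme genes can bind the core in place of the regulatory particle. Germ cells are known for a proteasome in which the alpha subunit Psma8 takes the place of its paralogue Psma7, and the activator encoded by Psme4 is known for its part in the degradation of core histones during sperm formation.

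Values below are signals in scaled MAS5 units, given in the order of development: type A, type B, pachytene, round spermatid. The comparison of type B with type A is called the spermatogonial step, that of pachytene spermatocytes with type B the meiotic step, and that of round spermatids with pachytene spermatocytes the haploid step. A floor of 50.01 to 50.03 units was set on the 3 designs, and a ratio against a cell type at or under the floor is a lower bound, written as at least so many fold. A gene with several probe sets is given by the one with the highest mean signal. Levels of different probe sets are not compared with each other, since each binds with its own strength. The highest negative control of an array read between 12.9 and 32.7 on U74Av2, up to 62.4 on U74Bv2 and up to 103.5 on U74Cv2, in type B. Control probe sets present on all 3 designs gave log2 ratios with a standard deviation between designs of 0.26 at the spermatogonial step, 0.23 at the meiotic and 0.44 at the haploid step (30, 31 and 29 sets). This is the spread of hybridisation alone and holds no error between cell preparations.

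By summed signals, germ cell markers separated the spermatogonia from the later cells, while pachytene markers were high in round spermatids as well. The 10 round spermatid markers on the arrays summed to 380.2, 459, 3643 and 50008 signal units over the 4 cell types (7, 6, 3 and 1 at the floor). The 9 pachytene markers summed to 1083, 876, 30248 and 37872 (6, 7, 0 and 1 at the floor). The 8 spermatogonial markers summed to 6523, 6597, 845 and 1991 (0, 0, 3 and 1 at the floor). At the meiotic step 7 of 9 pachytene markers were at least 2-fold higher, beside 17.1% of all genes. Single markers could differ from their list. Sycp1, a pachytene marker, read 368, 319, 220 and 454 units, lowest in pachytene spermatocytes. Spaca1, a round spermatid marker, read 57.7, 60.4, 38.1 and 20.5 units. Sall4, a spermatogonial marker, read 248, 647, 96.8 and 588 units. Somatic cell markers were also present. Fibroblast and myoid markers summed to 7216, 14863, 550.4 and 666 (10 genes, of which 1, 0, 6 and 7 were at the floor), Sertoli markers to 8340, 6287, 3853 and 934 (10 genes; 1, 1, 2 and 7 at the floor), leukocyte markers to 1026, 1551, 390.4 and 505 (11 genes; 8, 3, 9 and 7 at the floor), and Leydig markers to 757, 1362, 1516 and 535 (7 genes; 2, 1, 3 and 5 at the floor). All 10 fibroblast and myoid markers were at least 2-fold lower at the meiotic step, beside 23.2% of all genes. The part of somatic RNA in the proteasome differences was not tested. In such bulk RNA, fewer cells of a type and less RNA per cell cannot be told apart.

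Of the 47 proteasome genes, 44 exceeded the floor in at least 1 cell type and 40 in all 4. The 3 that stayed under it everywhere were Psmb8, Psmb11 and Psmd2. The highest signal fell in type A spermatogonia for 12 genes, in type B for 13, in pachytene spermatocytes for 9 and in round spermatids for 10. Over all 13003 genes above the floor the corresponding shares were 28.7%, 29.9%, 20.1% and 21.3%. The proteasome genes were spread over the 4 cell types much like all genes.

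**Figure D1:**
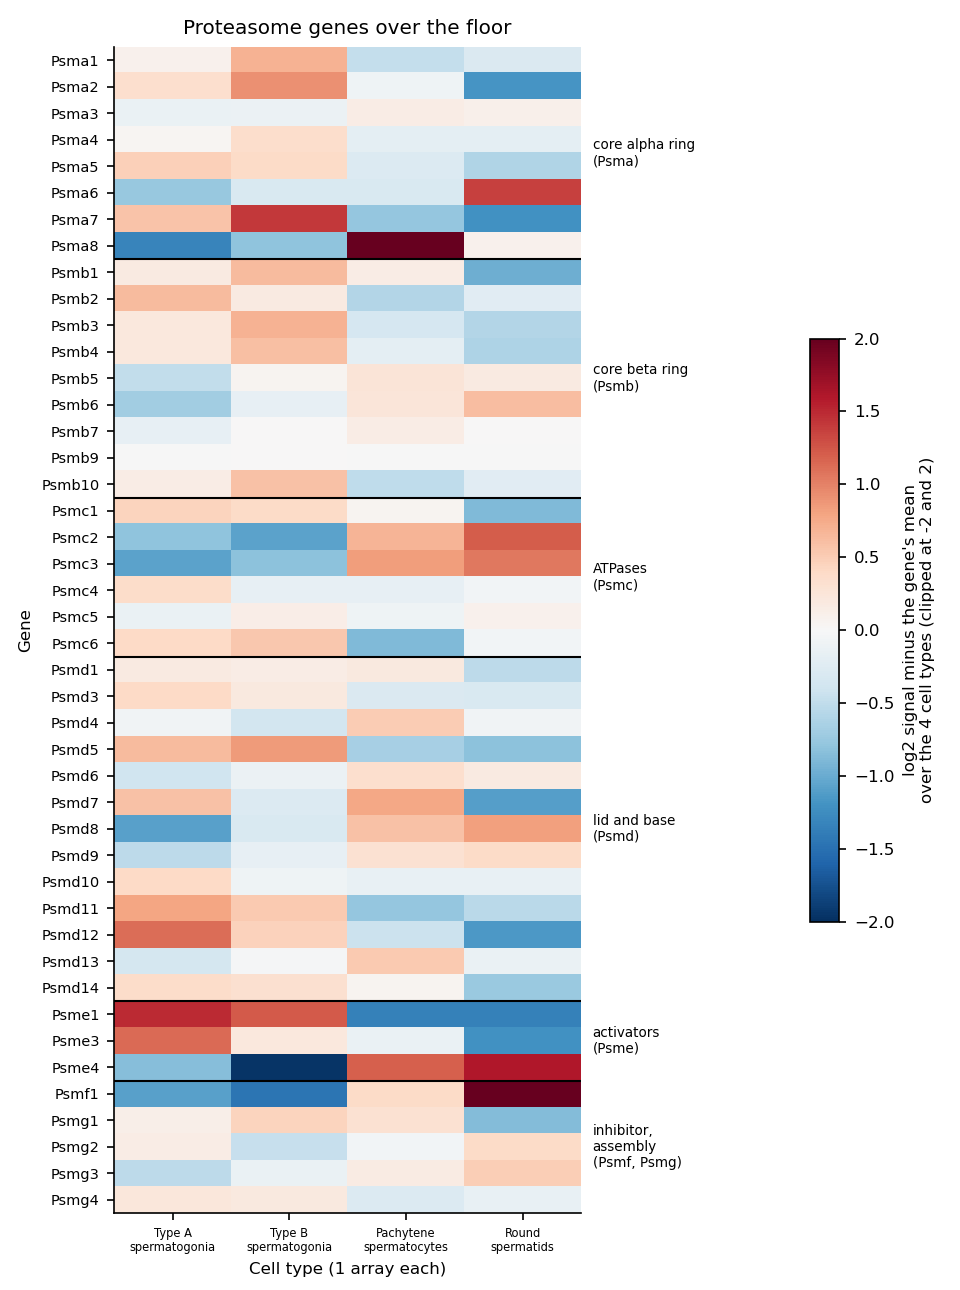
Heat map of the 44 proteasome genes that exceeded the floor somewhere. Rows are genes grouped by their place in the complex, columns are the 4 cell types (1 array each), and colour is the log2 signal minus the mean of that gene over the 4 cell types, clipped at -2 and 2. Psma7 and Psma8 run in opposite directions from type B spermatogonia to pachytene spermatocytes, as do Psme1 and Psme4, while most rows are pale.

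A gene was counted as higher or lower from a 2-fold ratio on. At the spermatogonial step none of 44 genes was higher, beside 3.92% of all 11951 genes over the floor, and 1, Psme4, was lower, beside 3.94%. These counts are near the background. At the meiotic step 6 of 43 were higher, beside 17.1% of all 12281 genes, and 9 were lower, beside 23.2%. The shares of 14.0% and 20.9% among proteasome genes lie near these backgrounds. At the haploid step 2 of 41 were higher (10.5% of all 11203 genes) and 6 lower (13.7%), which is 4.88% and 14.6% of the proteasome genes.

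The split at the meiotic step depended on how the arrays were scaled. Scaling to a common median gave 9 higher and 3 lower of 41 genes (25.5% and 12.5% of all genes), and scaling to the bacterial spike-in controls gave 15 higher and 2 lower (29.0% and 10.1%). These scalings moved the median log2 ratio of all genes from -0.28 to 0.18 and 0.35. At the spermatogonial step, spike-in scaling moved it from 0.01 to -0.76 and the proteasome counts to 0 higher and 12 lower (33.8% of all genes lower). Against all genes the family median kept close to the middle: it lay 0.13 above the median of all genes at the meiotic step, 0.10 and 0.20 above it under the common median and spike-in scalings, and 0.21 below it after quantile normalization. No gene counted as higher or lower turned its direction under the common median, spike-in or quantile settings.

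**Figure D2:**
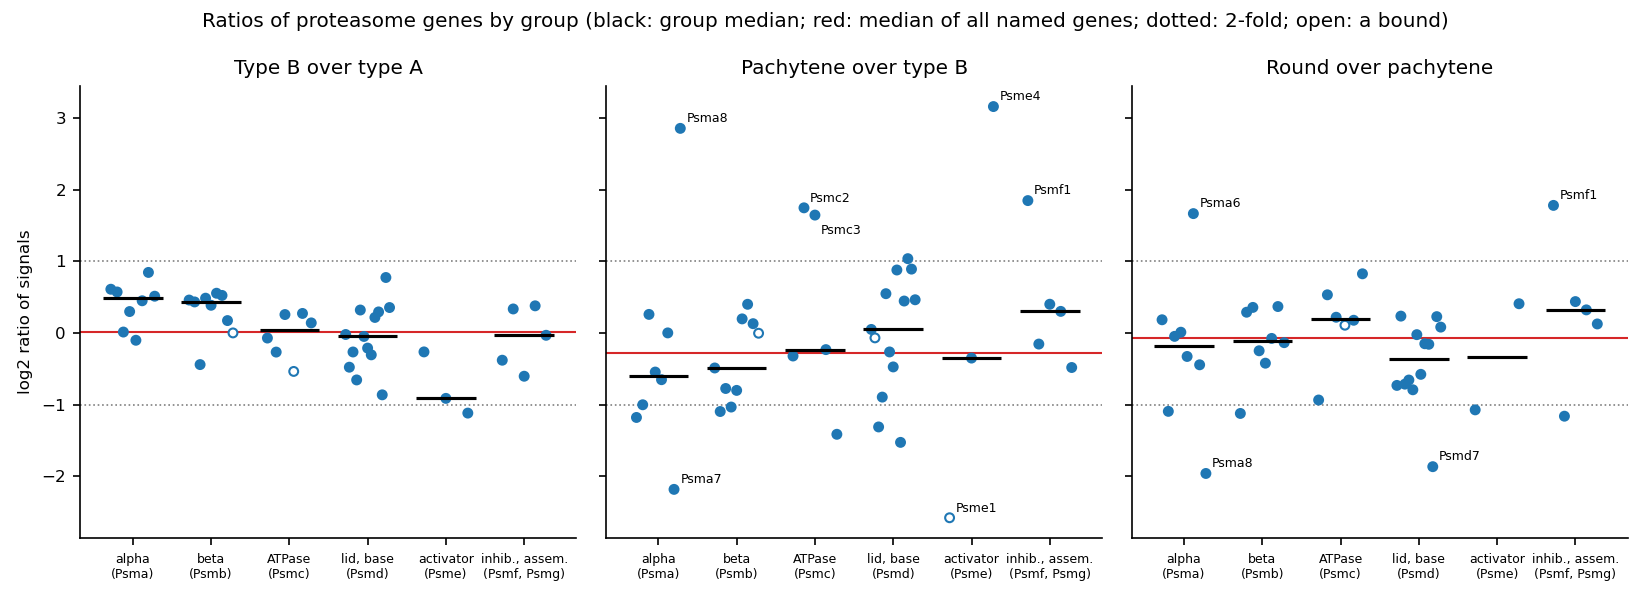
Log2 ratios of signals for each proteasome gene at the 3 steps, by group of subunits. Points are genes (open where the lower cell type was at the floor), black bars are group medians, the red line is the median of all named genes and dotted lines mark a 2-fold ratio. At the pachytene step Psma8 (2.86) and Psme4 (3.16) stand at the top and Psma7 (-2.18) and Psme1 (at most -2.58) at the bottom.

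The promoters of 4 members with wide differences at the meiotic step are shown, so that genes running in opposite directions can be set side by side. Psme4 and Psmc2 were higher and Psma7 and Psme1 lower in pachytene spermatocytes. The 4 were picked after their values were seen. Each sequence is from RefSeq and is the 250 bases before the annotated start in GRCm38.p6, 5′ to 3′ on the strand of the gene, with capitals on matches to GGGCGG (the Sp1 box) or CCAAT (the NF-Y box) on either strand:
Psme4, chr11:30771525-30771774, plus strand: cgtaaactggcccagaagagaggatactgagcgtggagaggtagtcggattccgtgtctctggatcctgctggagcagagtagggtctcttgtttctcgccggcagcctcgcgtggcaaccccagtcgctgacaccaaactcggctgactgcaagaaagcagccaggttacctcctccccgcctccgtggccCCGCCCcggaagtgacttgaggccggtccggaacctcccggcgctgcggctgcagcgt
Psmc2, chr5:21785025-21785274, plus strand: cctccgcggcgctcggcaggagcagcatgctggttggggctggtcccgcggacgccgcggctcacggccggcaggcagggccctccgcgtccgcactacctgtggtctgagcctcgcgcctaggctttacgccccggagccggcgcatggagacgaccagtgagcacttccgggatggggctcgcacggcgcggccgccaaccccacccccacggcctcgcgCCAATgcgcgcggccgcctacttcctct
Psma7, chr2:180042465-180042714, minus strand: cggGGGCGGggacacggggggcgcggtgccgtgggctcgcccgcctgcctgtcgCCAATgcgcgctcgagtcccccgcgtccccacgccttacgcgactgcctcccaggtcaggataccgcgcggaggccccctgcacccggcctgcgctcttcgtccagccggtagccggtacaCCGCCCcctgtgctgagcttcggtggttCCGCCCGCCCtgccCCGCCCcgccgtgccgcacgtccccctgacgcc
Psme1, chr14:55578244-55578493, plus strand: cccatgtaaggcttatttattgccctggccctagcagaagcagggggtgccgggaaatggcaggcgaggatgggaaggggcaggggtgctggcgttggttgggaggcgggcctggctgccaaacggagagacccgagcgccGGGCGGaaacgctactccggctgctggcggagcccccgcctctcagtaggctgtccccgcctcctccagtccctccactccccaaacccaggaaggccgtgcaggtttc

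GGGCGG occurred 5 times in the window of Psma7 and 1 time each in those of Psme4 and Psme1. CCAAT occurred in those of Psma7 and Psmc2. Each of the motifs was thus found both beside a higher and beside a lower gene. GC content was 63.6% for Psme4, 74.4% for Psmc2, 77.2% for Psma7 and 66.8% for Psme1. Windows of 39 of the 47 genes were used, 1 each. Members on chromosome 18, Psma8 and Psmg2, were left out, so the germ cell form has no window here. The set of all promoters kept that chromosome. The shares over all promoters count every window, without a reduction to 1 per gene, so the sets compared are unlike. GGGCGG was found in 21 of these 39 windows (53.8%), against 32.7% of all 32851 promoter windows in the table. CCAAT was in 14 (35.9% against 33.8%). TGACNNNGC, the core of the antioxidant response element through which Nfe2l1 acts on proteasome genes, was in 5 (12.8% against 10.2%), and TGACGT, the core of the cyclic AMP response element, in 4 (10.3% against 6.47%). Both begin with TGAC and may match the same bases. The 5 genes with TGACNNNGC were Psmb5, Psmb6, Psmc6, Psmd9 and Psmd12. At the meiotic step Psmc6 was lower and none of the 5 was higher, beside 23.2% and 17.1% of all genes. A link between the motif and the direction was not tested. A match describes letters in this window and not a bound site.

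Among the alpha subunits, the paralogues Psma7 and Psma8 ran in opposite directions at the meiotic step. Psma8, the germ cell form, read 199.7, 285, 2068 and 532 units on U74Cv2. It was 7.25-fold higher at the meiotic step, 10.4-fold higher in pachytene spermatocytes than in type A, and 3.89-fold lower at the haploid step. Psma7, its counterpart in somatic proteasomes, read 310.3, 558, 123 and 90.5 units on U74Av2 and was 4.54-fold lower at the meiotic step and 2.52-fold lower in pachytene spermatocytes than in type A. Pachytene spermatocytes thus held the highest Psma8 signal and round spermatids the lowest Psma7 signal of the 4 cell types. The log2 ratios of both genes at the meiotic step lay 5.04 apart.

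The Psma8 values rest on 1 probe set of the kind whose name ends in f, which Affymetrix gives to sets that may match several similar sequences. The other Psma8 probe set read 20.4, 7.50, 20.5 and 14.6 units, under the floor in every cell type, and so gives no ratio. Psma7 has 1 probe set, on another design.

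Psma6 was the only alpha subunit counted as higher at the haploid step. It read 682, 932, 933 and 2965 units, level at the meiotic step and 3.18-fold higher in round spermatids. Psma2 ran the other way, with 533, 793, 396 and 185.8 units. At the meiotic step it was lower by just over the 2-fold limit, the nearest to it of the members counted, and 2.13-fold lower again in round spermatids. Psma1 read 127, 194, 85.8 and 97.6 units and was 2.26-fold lower at the meiotic step. Both Psma1 and Psma2 came under 2-fold at that step when type A spermatogonia were the reference. Psma3, Psma4 and Psma5 stayed within 1.57-fold at each step by the probe set used. For Psma3 this set carried an f and 2 other sets differed from it, with meiotic log2 ratios of -1.35 and at most -1.07 against 0.26.

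**Figure D3:**
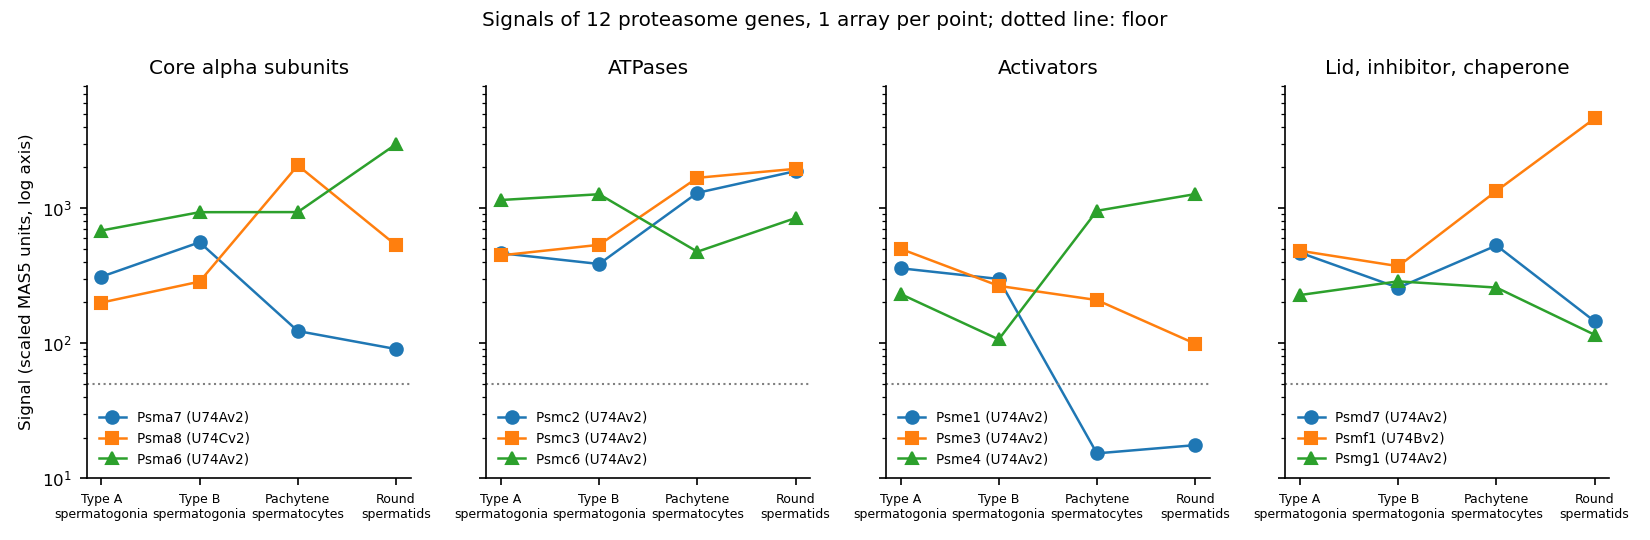
Signals of 12 proteasome genes in the 4 cell types, on a logarithmic axis in scaled MAS5 units, 1 array per point, with the floor dotted. Psma8 peaks in pachytene spermatocytes at 2068, Psma6 and Psmf1 are highest in round spermatids, and Psme1 lies under the floor in both later cell types.

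Of 11 beta genes 9 were measured at the meiotic step, of which none was higher, beside 17.1% of all genes, and 2 (22.2%) were lower, beside 23.2%. Those were Psmb3, a structural subunit, with 543, 761, 372 and 313 units (2.05-fold lower), and Psmb10. Psmb1 read 377, 519, 371 and 170.3 units and was 1.40-fold lower at the meiotic and 2.18-fold lower at the haploid step. Its other usable probe set read 201, 341, 139.7 and 124.6 units, 2.44-fold lower at the meiotic and 1.12-fold lower at the haploid step, so the sets place the difference at different steps. Psmb2 (672, 496, 290 and 372 units) and Psmb4 (1252, 1639, 941 and 703 units) were lower at the meiotic step by 1.71-fold and 1.74-fold.

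The 3 catalytic subunits of the constitutive core differed little by the probe sets used. Psmb5 read 758, 1115, 1279 and 1215 units, Psmb6 298, 429, 566 and 732 units, and Psmb7 515, 581, 636 and 579.9 units. The ratios of these 3 genes by the probe sets used stayed under 1.48-fold at every step, and over the 4 cell types the widest range was 2.46-fold, for Psmb6. The Psmb5 and Psmb7 sets carried an f. Another Psmb5 set was 1.56-fold higher at the meiotic step. A further Psmb5 set read 82.0, 111, 86.3 and 140.4 units. Its log2 ratio at the meiotic step was -0.37, and it was 1.63-fold higher at the haploid step. The immune counterparts of the 3 catalytic subunits, which replace them in cells exposed to interferon, were read unequally. Psmb8 read between 33.7 and 45.9 units and Psmb9 between 6.90 and 50.1 units, at or near the floor. Psmb10 exceeded it in all 4 cell types, with 149, 201, 94.3 and 115.4 units, and was 2.14-fold lower at the meiotic step. Its log2 ratio at that step was 1.23 below that of Psmb7. Psmb11, the beta subunit of the thymus proteasome, read between 25.2 and 35.4 units.

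Taken as a core, the alpha and beta genes had small median ratios. At the spermatogonial step 15 of 17 had a ratio above 1, beside 6111 of all 11951 genes. The core median log2 ratio was 0.45, where all genes had 0.01. Under spike-in scaling this median became -0.37, still 0.40 above the median of all genes. At the meiotic step 11 of 17 had a ratio below 1, near the share over all genes (7594 of 12281). The core median was -0.54, and 0.18 after scaling to the spike-in controls. Relative to all genes the core median was 0.26 lower at the trimmed-mean scaling, and 0.26, 0.17 and 0.68 lower under the common median, spike-in and quantile settings.

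Of 5 ATPase genes measured at the meiotic step 2 were higher and 1 was lower, beside 17.1% and 23.2% of all genes. Psmc2 read 463, 386, 1295 and 1876 units and was 3.36-fold higher at that step. Psmc3 read 447, 534, 1674 and 1951 units and was 3.13-fold higher. By the sets used, pachytene spermatocytes and round spermatids lay above both types of spermatogonia for both genes. The same held for every Psmc3 set on U74Av2, all of which have suffixed names. On U74Cv2 it did not hold. There a Psmc3 set without a suffix read 443, 288, 441 and 313 units, and a suffixed one 95.1, 101, 100.5 and 86.9 units. Psmc6 read 1147, 1265, 475 and 843 units, 2.66-fold lower in pachytene spermatocytes and 1.77-fold higher in round spermatids than in pachytene.

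The other ATPases differed less. Psmc5 lay between 353 and 427 units in all 4 cell types, and its ratios did not exceed 1.21-fold. Psmc1 read 489, 466, 373 and 195.3 units. Psmc4 reached 72.5 units in type A spermatogonia and 54.0 in round spermatids and was at the floor in the other 2 cell types, so its differences are not told from background. Subunits of the same ring thus had signals running in both directions at the same step.

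Lid and base genes had a median log2 ratio of 0.05 at the meiotic step, which was 0.34 above that of all genes and between 0.03 and 0.68 above it under the other scalings. Of 13 measured genes 1 was higher and 2 were lower, beside 17.1% and 23.2% of all genes. Under a common median 4 and 1 of 12 were (25.5% and 12.5% of all genes), and under spike-in scaling 6 and 0 (29.0% and 10.1%). Psmd7, a lid subunit that pairs with the deubiquitinase encoded by Psmd14, read 468, 257, 528 and 145.1 units. It was 2.05-fold higher at the meiotic step, where pachytene spermatocytes were 1.13-fold above type A, and 3.64-fold lower in round spermatids. Psmd14 itself read 362, 350.2, 292 and 169 units, 1.73-fold lower at the last step. Psmd8, a lid subunit, was higher at each step, from 199.8 through 342 and 635 to 745 units, so that pachytene spermatocytes were 1.86-fold higher than type B and 3.18-fold higher than type A spermatogonia.

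The genes lower in pachytene spermatocytes were Psmd5, a chaperone of base assembly that is absent from the mature particle, and Psmd11, a lid subunit. Psmd5 read 344, 399.6, 138.8 and 125.2 units and was 2.88-fold lower. Psmd11 read 908, 756, 305 and 359 units and was 2.48-fold lower, while another of its probe sets gave a log2 ratio of -0.33. Psmd12, also of the lid, was lower at each step, from 352 through 224 and 120.3 to 73.4 units, with ratios of 1.57-fold, 1.86-fold and 1.64-fold.

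The remaining members of the group varied less at the meiotic step. Psmd4, a ubiquitin receptor, read 478, 388, 713 and 479 units and was 1.84-fold higher there, whereas its second probe set had a log2 ratio of -0.39. Psmd1, Psmd3, Psmd6, Psmd9 and Psmd13 stayed within 1.47-fold at that step. Psmd10, an X-linked assembly chaperone, read 72.9, 52.4, 35.5 and 48.4 units by 1 probe set and 35.3, 50.6, 3.10 and 97.2 by the other, in each case lowest in pachytene spermatocytes. The first set is on U74Cv2, where it was at or under the floor in both later cell types. The second is on U74Av2, where its 97.2 in round spermatids lay above the highest negative control of that array (28.4). From pachytene spermatocytes to round spermatids 9 of 12 lid and base genes had ratios below 1, beside 6030 of all 11203 genes. The lid and base median log2 ratio was -0.37, against -0.06 for all genes. Under the common median, spike-in and quantile settings the lid and base median was -0.14, -0.42 and -0.24. All genes had -0.06, -0.14 and -0.03.

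The activators gave the widest contrast in the family. Psme4, the activator of histone degradation, read 231, 106.6, 954 and 1267 units. It was 2.17-fold lower in type B than in type A spermatogonia, 8.95-fold higher at the meiotic step, and 4.13-fold higher in pachytene spermatocytes than in type A. Pachytene spermatocytes and round spermatids were both far above the spermatogonia and within 1.33-fold of each other. Psme1, a subunit of the interferon-induced activator, read 358, 299, 15.3 and 17.6 units and ran the other way from type B to pachytene. It was at least 5.97-fold lower at the meiotic step and at least 7.16-fold lower in pachytene spermatocytes than in type A. The log2 ratios of Psme4 and Psme1 at the meiotic step differed by at least 5.74.

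Psme3, the nuclear activator, was highest in type A spermatogonia and lower at each step, with 499 units, then 266 (1.88-fold lower), 208 (1.27-fold lower) and 99.2 (2.10-fold lower). Psme2 is not among the members, because its 3 probe sets carry a second symbol as well. The activator that was higher and those that were lower were read on the same U74Av2 arrays. A second Psme4 probe set, on U74Cv2, read 96.5, 81.7, 73.3 and 103.8 units and gave a meiotic log2 ratio of -0.16, where the set used gave 3.16. The highest negative controls of those arrays read 69.1, 103.5, 61.2 and 59.0, so this set lay above them in every cell type but type B.

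Psme1 and the interferon-related genes can be set beside each other. Of 13 genes of interferon response and antigen presentation on the arrays, 9 were over the floor at the meiotic step, 1 was higher there and 2 were lower, near the 17.1% and 23.2% of all genes. Irf1, a transcription factor of this response, read 497, 648, 126.5 and 81.2 units, and B2m, the light chain of class I molecules, 414, 468, 133 and 58.3 units. Tapbp, the peptide-loading factor tapasin, was 2.02-fold higher. Of 8 leukocyte markers measured at the meiotic step 4 were lower as well and none was higher, with a median log2 ratio of -0.85. Laptm5, a lysosomal protein of blood cells, read 675, 819, 162 and 153 units, and C1qa, a complement component made by macrophages, reached 189 in type B, while Ptprc, the common leukocyte antigen, lay between 3.3 and 6.7 units. The part of leukocyte RNA in the Psme1 difference was not tested.

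Psmf1, which binds the core and was first described as its inhibitor, ranged 12.4-fold over the cell types, the widest range among members measured in all 4. It read 483, 371, 1338 and 4603 units on U74Bv2, higher by 1.85 on the log2 scale at the meiotic step and 3.44-fold higher again at the haploid step. The gene has 5 probe sets and they did not give 1 answer. At the meiotic step the 3 sets on U74Bv2 gave log2 ratios of 1.85, 1.21 and 0.49, and a set on U74Cv2 gave -0.76. At the haploid step the other sets on U74Bv2 gave -1.34 and -0.44. The high round spermatid signal was thus read by a single probe set.

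The assembly chaperones Psmg1 to Psmg4, which pair up to build the alpha ring, were not counted as higher or lower at the meiotic step. Psmg1 read 227, 287, 258 and 115.4 units and was 2.24-fold lower in round spermatids than in pachytene spermatocytes. Its signals in the first 3 cell types lay within 1.26-fold of each other. Psmg2 read 170.2, 112.1, 148.2 and 201 units, Psmg3 203, 264, 325 and 407 units, and Psmg4 241, 236, 169 and 184.4 units. The ratios of these 3 genes stayed within 1.52-fold at each step by the probe set used. The Psmg3 set carried an r, and its other sets differed, with at least 1.81-fold higher signal at the meiotic step in one and 1.90-fold lower signal at the haploid step in the other.

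Probe sets of the same proteasome gene show how far a single ratio can be read. Over 13 genes with at least 2 usable sets, the 35 pairs of sets differed by a median of 0.80 in their log2 ratio at the meiotic step, and 15 pairs (42.9%) differed by more than 1. At the spermatogonial step 8 of 37 pairs did, and at the haploid step 8 of 30. Pairs of the same gene share sets and are not independent. Psmc3 and Psmf1, with 5 sets each, gave most of the meiotic pairs that differed by more than 1. Psmc6 and Psmd5 had the same sign in each usable set at the meiotic step, whereas Psme4 and Psmf1 each had a set of the opposite sign. The other usable Psmd5 set read 85.5 units in type B, under the highest negative control of that array (103.5). It was under the floor in the other cell types, so its sign is not told from background. For Psmc3 the 3 sets on U74Av2 gave 1.65 to 2.16, all with suffixed names, while the sets on U74Cv2 gave 0.61 and -0.01. Psma7, Psmc2, Psma6 and Psmd7 have 1 probe set each, so no such comparison exists for them.

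**Figure D4:**
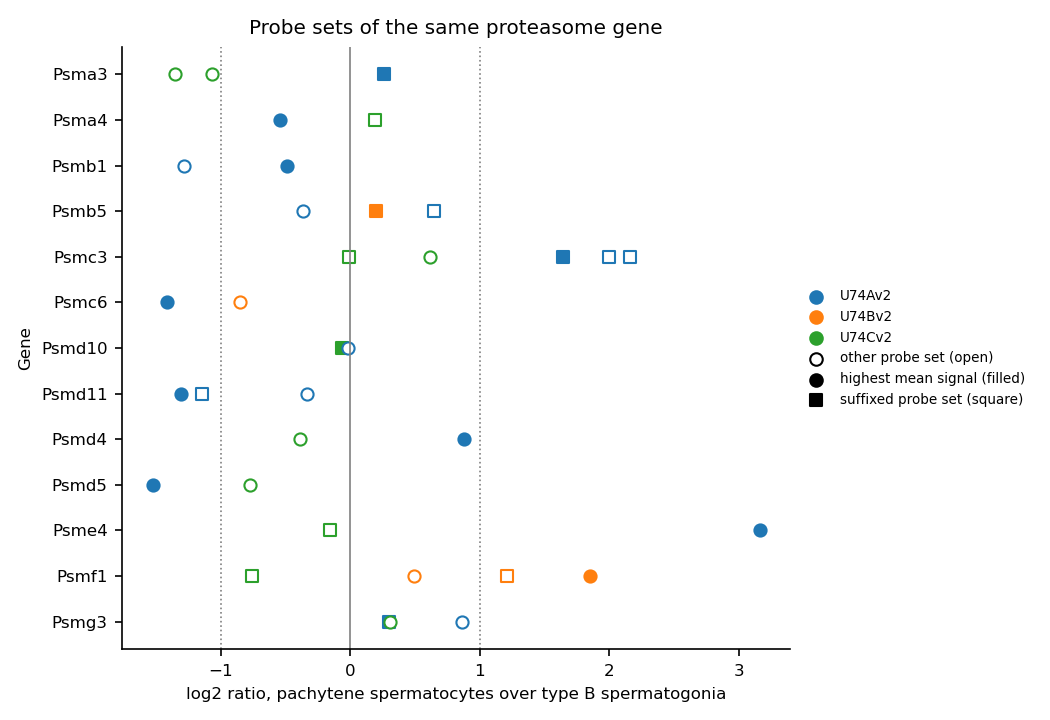
Log2 ratio of pachytene spermatocytes over type B spermatogonia for every usable probe set of the 13 proteasome genes that have at least 2. Colour gives the array design, filled symbols the set with the highest mean signal, squares the sets whose names carry a suffix letter. The sets of Psme4 lie at 3.16 and -0.16 and those of Psmc6 at -1.41 and -0.85.

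Other genes of the pathway were read from lists of partners, shuttles, regulators and the COP9 signalosome, a complex related in structure to the proteasome lid that removes the modifier Nedd8 from cullin ligases. Of its 9 genes 5 were higher at the meiotic step and none was lower, beside 17.1% and 23.2% of all genes. Their median log2 ratio was 1.04, which lay between 0.91 and 1.65 above the median of all genes under the 4 scalings. Under spike-in scaling 8 of 8 measured were higher, beside 29.0% of all genes. Gps1 read 699.8, 619, 2277 and 1101 units and was 3.68-fold higher. Cops5, the catalytic subunit, read 167, 207, 703 and 1055 units and was 3.40-fold higher. Cops4 was 2.73-fold, Cops3 2.66-fold and Cops7a 2.05-fold higher. The 14 proteasome genes of the lid and base list had a median of 0.05 at this step, over the 13 that were measured. Gps1 was 2.07-fold lower again in round spermatids. Genes of all these lists are given by the set with the highest mean signal, and their other sets were not compared.

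Among 10 partners of the proteasome outside the Psm names, 2 were higher and 2 lower at the meiotic step, near the 17.1% and 23.2% of all genes. Spike-in scaling gave 4 and 1 (29.0% and 10.1% of all genes). Uchl5, a deubiquitinase of the base, read 186.2, 147.3, 512 and 326 units and was 3.48-fold higher. Akirin2, which brings proteasomes into the nucleus, read 1133, 1261, 2968 and 5352 units, 2.35-fold higher and then a further 1.80-fold, by a set with a suffixed name. Zfand5, which stimulates the proteasome, was 4.25-fold lower and Txnl1, a redox protein of the regulatory particle, 2.93-fold lower. The chaperone of core assembly Pomp read 593, 549.95, 371 and 194.2 units, with 1.48-fold and 1.91-fold lower signals at the last 2 steps.

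Of 8 shuttle and segregase genes 3 were higher and 1 was lower at the meiotic step, beside 17.1% and 23.2% of all genes. Quantile normalization left 1 higher (18.2% of all genes), and with type A spermatogonia as the reference 0 of 8 were higher or lower, beside 17.1% and 23.7%. Faf1 was 2.45-fold, Nploc4, a cofactor of the segregase Vcp, 2.24-fold and Ubqln1 2.05-fold higher. The sets of Faf1 and Ubqln1 have suffixed names. Ubqln2, an X-linked gene in the mouse, read 157.7, 498, 128.2 and 108.4 units, 3.16-fold higher in type B than in type A spermatogonia and 3.88-fold lower in pachytene spermatocytes. Of the ubiquitin list only Uba6, an activating enzyme, was on the arrays with a single symbol. It was 5.53-fold lower at the meiotic step with 553, 957, 173.2 and 231 units, by a set that carried an f.

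Of 9 transcriptional regulators of proteasome genes 8 were measured, with none higher and 5 lower at the meiotic step, beside 17.1% and 23.2% of all genes. Their median log2 ratio was -1.18, between 0.77 and 0.89 below that of all genes under the 4 scalings. Under the common median and the spike-in scaling 2 of 8 were lower, beside 12.5% and 10.1% of all genes. Nfe2l1, the factor that raises proteasome genes when proteolysis is blocked, read 525, 415, 296 and 219 units and was 1.40-fold lower. Nfe2l2, its relative in the oxidative stress response, read 559.8, 399.9, 105.4 and 137.9 units and was 3.79-fold lower. Nfya, Nfyb and Nfyc, the subunits that bind CCAAT, were 2.33-fold, 2.47-fold and 2.20-fold lower. Mafk was at least 4.39-fold lower.

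**Figure D5:**
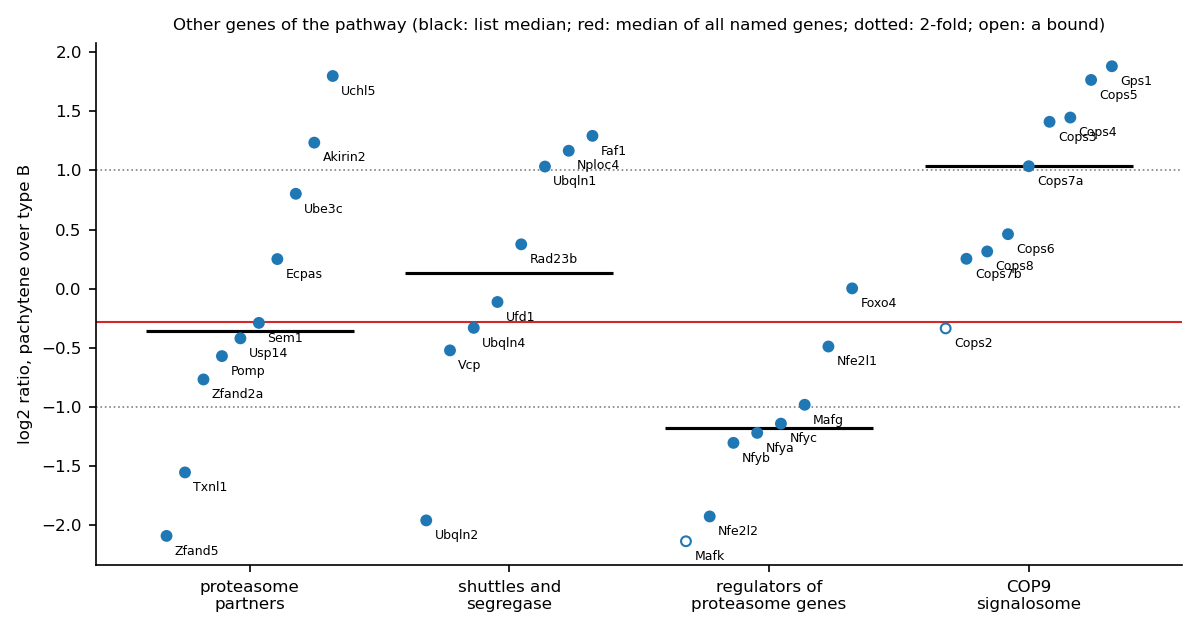
Log2 ratio of pachytene spermatocytes over type B spermatogonia for other genes of the pathway in 4 lists. Points are genes (open where the lower cell type was at the floor), black bars list medians, the red line the median of all named genes, dotted lines a 2-fold ratio. The COP9 signalosome genes have a median of 1.04 and the regulators one of -1.18; under spike-in scaling the regulators' median was -0.42.

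The member ratios differed in how they held under the alternatives. Of 24 member ratios of at least 2-fold over the 3 steps, 6 stayed at least 2-fold in the same direction under every alternative that gave a value. They were those of Psma7, Psma8, Psmc2 and Psme1 at the meiotic step and of Psma6 and Psmd7 at the haploid step. None of these 6 could be compared with another usable probe set. Psma7, Psmc2, Psma6 and Psmd7 have 1 set each, so alternatives in the choice of set could not change their ratios. The other sets of Psma8 and Psme1 lay under the floor in every cell type. Of the 15 genes counted at the meiotic step, 10 were also at least 2-fold different in the same direction from type A spermatogonia. The 5 that were not were Psma1, Psma2, Psmb3, Psmb10 and Psmd7. Against type A, 17.1% of all 12048 genes were higher and 23.7% lower in pachytene spermatocytes. Those shares are not a background for 10 of 15, since they are not limited to genes already counted at the meiotic step. Both ratios share the pachytene arrays. The common median and spike-in scalings each brought Psma1, Psma2, Psmb3, Psmb10, Psmc6 and Psmd11 under 2-fold at the meiotic step, and spike-in scaling also Psmd5. Quantile normalization did so for Psma1, Psmb10 and Psmd7 there, and for Psma2, Psmb1, Psme3 and Psmg1 at the haploid step.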

How the data were processed

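The values the authors deposited are linear signal intensity values of probe sets; the submitters' processing notes name MAS5. Its version, settings and detection calls are not given in the sources used here. Deposited values of every array had a 2% trimmed mean of 125 to 125.1. Arrays of 1 design were brought to the geometric mean of their 4 trimmed means, values below 0.4 of that mean were set to this floor, and log2 ratios were taken within a design (Python 3.11.15, numpy 2.4.6, pandas 2.3.3, scipy 1.17.1). Depth here means signal over background, and 22 of 228 negative control readings exceeded the floor.

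Gene names came from the platform annotation (of 36701, 29131 had 1 symbol, 724 several and 6846 none), and 29044 matched the RefSeq table of GRCm38.p6 by Entrez identifier. All 47 member symbols were current. Genes over the floor in at least 1 of the 2 cell types of a step were counted at a 2-fold threshold. With 1 array per group there is no test, and the share over all genes stands in its place. The rule for named members took every member at least 2-fold different at a step, Psma7 and Psma8, the catalytic and immune beta subunits, all Psme, Psmf and Psmg genes and the extremes of each group at the meiotic step; other values complete the groups. The members and lists were chosen with earlier results of these data known. Alternatives covered scaling, floor, choice of probe set, design, threshold and, added after seeing the data, type A spermatogonia as the reference. The counting was tested on simulated data. Protein sequences were not used here.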

Additional observations from a re-analysis of the deposited data

How the results depend on the processing

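Of 96 counts and medians over the alternatives 69 stayed the same (counts within 1.5 times, medians within the spread of the controls). Percentages here are shares of all genes under the same setting, and those at the 1.5-fold and 4-fold thresholds are not given. At least 2-fold higher in type B over type A were 0 genes (3.92%). Quantile normalization, no floor and the second highest probe set gave 1 (4.96%, 10.9% and 4.23%) and a 1.5-fold threshold 3. At least 2-fold lower was 1 (3.94%). A common median gave 3 (5.21%), spike-in scaling 12 (33.8%) and quantile normalization 2 (5.24%). No floor gave 2 (7.85%), the mean over probe sets 0 (1.94%), and thresholds of 1.5-fold and 4-fold 5 and 0. The median of 0.16 became -0.60 under spike-in scaling. For pachytene over type B, the 6 higher genes (17.1%) became 15 under spike-in scaling (29.0%), 3 with the second highest probe set (16.8%) and 2 at 4-fold. The 9 lower (23.2%) became 3 under a common median (12.5%), 2 under spike-in scaling (10.1%) and 2 at 4-fold. The median of -0.15 became 0.29 under a common median and 0.54 under spike-in scaling. For round spermatids over pachytene, the 2 higher (10.5%) became 1 with the mean over probe sets (7.64%), the second highest set (10.3%) or U74Av2 only (8.31%). At 4-fold they became 0. The 6 lower became 2 after quantile normalization, 11 at 1.5-fold and 0 at 4-fold. Among single genes, the second highest probe set reversed Psme4 (-0.16) and Psmf1 (-0.76) for pachytene over type B; Psma8 has no value on U74Av2 or without suffixed probe sets. Without suffixed sets Psmc3 came to 0.61. Apart from the changed threshold or probe set itself, the cause was not tested. No paired analysis was possible because each cell type has 1 array per design and the labels give no replicate numbers. The signal over background limits Psmb9, Psmc4 and Psmd10.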
